A study of Mus musculus with 36 samples.

Results

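The cytochrome P450 genes of families 1 to 3 described here were a list of 39 genes, among the 78239 gene entries counted in each library. The list names P450 genes of these families with a role in the handling of foreign compounds. Its rule uses gene symbols and no measured value, but it was drawn up with earlier results of these data known. All 39 symbols matched an entry of the count files. The list holds 2 genes of family 1, 30 of family 2 and 7 of family 3, and 23 further protein-coding P450 genes of these families lie outside it.

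The RNA came from 3 organs, namely the heart, the kidney and the liver, of male mice of the inbred substrain C57BL/6NCrl, with the genotype given as WT. The animals were 8, 10 or 12 weeks old, so the series spans the end of adolescence, and no group received an experimental treatment. The paper describes anesthesia with ketamine and xylazine and blood sampling before the organs were taken. Each of the 9 combinations of tissue and age had 4 libraries, which the series calls biological replicates, and there were 36 libraries in all. The deposited values were whole-number counts of read pairs per gene, and the question was whether the RNA levels of these enzymes differed between ages within a tissue.

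Cytochrome P450 enzymes are heme proteins of the endoplasmic reticulum that insert 1 atom of molecular oxygen into their substrate, with electrons delivered by the reductase Por and by cytochrome b5. Families 1 to 3 carry most of the oxidation of drugs and plant compounds, and many members also act on steroids, bile acids and arachidonic acid. In the liver their genes are under the control of receptors that sense foreign compounds, AHR for family 1 and CAR and PXR for much of subfamilies 2B, 2C and 3A. Several mouse members are also expressed differently in males and females, under the pattern of growth hormone release.

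The depth was 21031599 to 33637390 counted pairs per library. A library of this size in which no pair was counted on a gene allows a level of up to 0.0892 to 0.143 counts per 1000000 counted pairs (CPM), taking 3 counts as the limit, which covers counting error only. Markers of the labelled tissue were high in every library. The summed level of 6 hepatocyte markers was 71350 to 126200 CPM in liver, that of 5 proximal tubule markers 8730 to 10820 CPM in kidney, and that of 5 cardiomyocyte markers 41170 to 54910 CPM in heart. Hepatocyte markers also reached 18.3 and 23.9 CPM in replicates 2 and 4 of the 10-week heart, against 0.103 to 4.28 CPM in the other heart libraries, and the heart values that rest on the 10-week group are also given without these 2 libraries. In bulk tissue, fewer cells of a type and less RNA per cell cannot be told apart.

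The members lie in clusters of near relatives, which matters for reading their counts. Of the 39 genes, 12 form a Cyp2c cluster at chr19:38995462-40175777 (GRCm39), 10 lie on chromosome 7, 7 on chromosome 5 and 4 on chromosome 15. Cyp2c37, Cyp2c54 and Cyp2c50 follow one another among the members, with 24428 and 15802 bases between them, and their coding sequences are 95.1% to 96.1% identical. Their promoters, the 250 bases before the annotated start, are printed here because the only liver calls between 8 and 12 weeks fell in this group. Capitals mark the runs of 12 or more bases that all 3 windows share, 95 bases in all, of which the longest run has 35 bases. The windows are chr19:39980615-39980864 on the plus strand for Cyp2c37, chr19:40077835-40078084 on the plus strand for Cyp2c50 and chr19:40062283-40062532 on the minus strand for Cyp2c54.
Cyp2c37: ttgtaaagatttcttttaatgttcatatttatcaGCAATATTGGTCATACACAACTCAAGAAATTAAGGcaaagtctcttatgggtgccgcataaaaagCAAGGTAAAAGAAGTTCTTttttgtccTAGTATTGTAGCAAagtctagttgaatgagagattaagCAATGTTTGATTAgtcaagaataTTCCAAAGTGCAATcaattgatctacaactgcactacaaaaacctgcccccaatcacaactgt
Cyp2c50: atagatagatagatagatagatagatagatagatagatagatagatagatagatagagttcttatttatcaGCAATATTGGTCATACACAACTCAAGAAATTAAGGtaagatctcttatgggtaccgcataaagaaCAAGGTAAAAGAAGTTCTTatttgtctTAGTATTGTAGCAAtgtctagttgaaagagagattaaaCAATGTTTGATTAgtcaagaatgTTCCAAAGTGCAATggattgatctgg
Cyp2c54: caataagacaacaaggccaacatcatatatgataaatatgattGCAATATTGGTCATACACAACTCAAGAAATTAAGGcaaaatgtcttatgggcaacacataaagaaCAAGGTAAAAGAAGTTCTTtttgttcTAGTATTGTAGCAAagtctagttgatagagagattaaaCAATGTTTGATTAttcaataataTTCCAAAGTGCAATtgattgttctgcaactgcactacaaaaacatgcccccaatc

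The promoters of Cyp2a4 and Cyp2a5 are printed because these genes had nearly the same sequence and different levels in liver. Their coding sequences are 98.5% identical, and they lie at different places of chromosome 7. Their promoter windows are chr7:26006344-26006593 and chr7:26534480-26534729, both on the plus strand, and overlap over 240 bases when aligned. Capitals mark the 5 bases at which the overlapping parts differ.
Cyp2a4: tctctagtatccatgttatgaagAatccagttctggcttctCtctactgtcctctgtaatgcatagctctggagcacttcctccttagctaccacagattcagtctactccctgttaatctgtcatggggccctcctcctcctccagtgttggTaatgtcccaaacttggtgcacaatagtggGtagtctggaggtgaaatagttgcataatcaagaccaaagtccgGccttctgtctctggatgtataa
Cyp2a5: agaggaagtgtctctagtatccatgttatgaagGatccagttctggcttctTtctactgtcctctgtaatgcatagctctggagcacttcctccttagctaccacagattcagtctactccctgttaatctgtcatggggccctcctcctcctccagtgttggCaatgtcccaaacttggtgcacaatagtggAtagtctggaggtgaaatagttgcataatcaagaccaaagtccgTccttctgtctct

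A set of 4 short motifs with textbook roles was searched on both strands of these windows for all 21603 genes with such a window. The HNF1 motif GTTAAT was found in 6.25% of all windows and in 6 of the 39 members, among them Cyp2a4 and Cyp2a5, Cyp2c40 and Cyp2c69. The TATA box TATAAA was found in 11.9% of all windows and in 16 members, including Cyp3a11 and Cyp2c29. The nuclear receptor motif AGGTCA was in 13.1% of all windows and in 10 members, and the AHR core GCGTG in 31.4% of all windows and in 6 members, among them Cyp1a1 and Cyp1b1. The windows of Cyp2c37, Cyp2c50 and Cyp2c54 hold none of these 4 letter strings. A match is a description of the letters and no evidence of binding.

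The liver held most of the RNA of these genes. Of the 39 members, 34 had enough counts to be tested in liver, 16 in kidney and 10 in heart, and 1, 9 and 12 of the 39 had no counted pair in these tissues. The members took 1.09% ± 0.0435 of all counted pairs at 8 weeks in liver, 1.36% ± 0.118 at 10 weeks and 1.38% ± 0.0629 at 12 weeks (SD, n = 4). The 8-week libraries, at 1.05% to 1.13%, all lay under those of the later ages, at 1.23% to 1.47%. In kidney the share was between 0.218% and 0.256% in every library, and in heart between 0.00477% and 0.00656%.

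**Figure D1:**
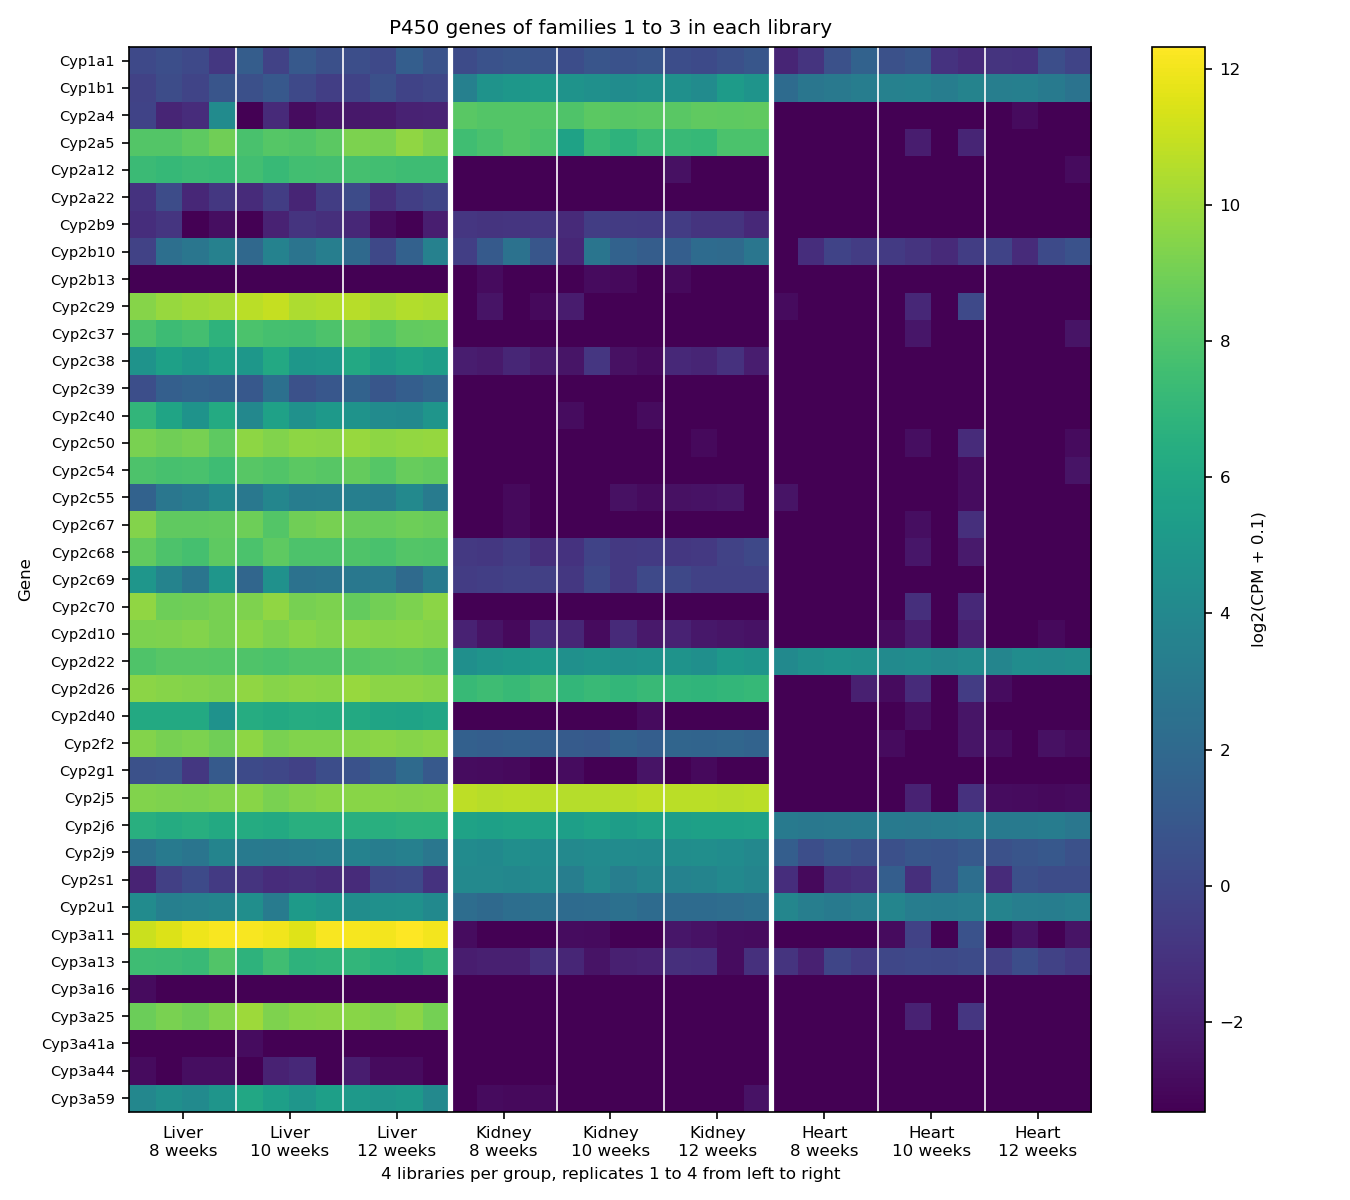
Level of each of the 39 genes (rows) in each of the 36 libraries (columns, 4 per tissue and age), as log2(CPM + 0.1) with CPM scaled within a tissue. Liver fills most of subfamilies 2A, 2C, 2D and 3A, Cyp2j5 and Cyp2a4 stand out in kidney, and replicates 2 and 4 of the 10-week heart hold traces of genes that are high in liver.

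Levels of different genes are compared only per transcript length, as counts per 1000 bases of transcript and 1000000 counted pairs (RPKM, mean over the 12 libraries of a tissue). In liver, 15 members had more than 100 RPKM. Cyp3a11, the main family 3 enzyme of mouse liver, stood first at 1632 RPKM, followed by Cyp2c29 at 751.5, Cyp2d26 at 446.0, Cyp2d10 at 409 and Cyp2c50 at 378.5 RPKM. Subfamily 2C held 35.1% of the members' summed RPKM in liver, 3A 33% and 2D 16.2%. The order and these shares depend on the length and the count used. With the length of all annotated exons, Cyp3a11, Cyp2c29 and Cyp2d26 stayed first at 763.9, 402.6 and 360.3 RPKM. Cyp2d10 then stood at 129 RPKM, under Cyp2c67 at 223.7 RPKM. The count without regard to strand kept 58.5% of the pairs that either strand count gives Cyp2f2 in liver, and 99.7% for Cyp2d10. In kidney, Cyp2j5, an epoxygenase of arachidonic acid, stood first at 614.7 RPKM, followed by Cyp2a4 at 181.5, Cyp2a5 at 89.4, Cyp2d26 at 87.1 and Cyp2j6 at 13.2 RPKM. Subfamily 2J held 62.4% and 2A 26.6% of the kidney sum. In heart no member reached 10 RPKM. Cyp2d22 was highest there at 6.92 RPKM, before Cyp2u1, a hydroxylase of long-chain fatty acids, at 2.49 RPKM and Cyp2j6 at 2.31 RPKM.

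Between tissues, 35 members could be tested in a single edgeR quasi-likelihood model of all libraries with Benjamini-Hochberg adjustment. A gene entered this model if it had enough counts in any of the tissues, which 34 members had in liver, 16 in kidney and 10 in heart. A member that entered only through liver could hardly be called lower there. The calls higher in liver therefore in part restate where the members were detected. In liver, 29 members were higher than in kidney and 5 were lower, whereas 37% of all 19716 genes were called higher and 46% lower. The call higher in liver than in heart was made for 33 members and for 42.2% of all genes, and the call lower for Cyp1b1 alone and for 42% of all genes. Kidney exceeded heart for 16 members and for 47.1% of all genes, and was under it for Cyp3a13 and Cyp2u1 and for 39% of all genes. These shares depend on the scaling between tissues. With library size as the only scaling, 17% of all genes were higher and 72.3% lower in liver than in kidney, and the members stood at 28 higher and 6 lower. The median gene differed by -0.16 (log2) between liver and kidney and by 0.15 between kidney and heart in the model with TMM scaling.

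The exceptions to the liver pattern were few. Cyp2a4, a steroid hydroxylase, had a log2 difference of -8.69 (SE 0.485, adjusted p = 7.25e-16) in liver minus kidney, with 458 counted pairs in liver and 104527 in kidney. Cyp2s1, a member expressed in epithelia, was lower in liver by a log2 difference of -4.03 (SE 0.264, adjusted p = 6.94e-16). Cyp1b1, an AHR target found mostly outside hepatocytes, was lower in liver than in kidney, at -3.74 (SE 0.187, adjusted p = 3.51e-19), and lower than in heart, at -2.80 (SE 0.190, adjusted p = 1.43e-15). The 2J genes divided. Cyp2j5 was lower in liver than in kidney at -0.46 (SE 0.0771, adjusted p = 2.70e-06), whereas Cyp2j6 was higher at 1.68 (SE 0.0527, adjusted p = 3.64e-25). With library size as the only scaling, which set the median gene at -0.93, these differences were -1.25 and 0.89. Cyp2j9 was called lower in liver at -0.23 (SE 0.104, adjusted p = 0.0457), which is close to the median gene's -0.16, and the call was lost in 17 of the 36 fits that each left out a library (adjusted p up to 0.105). Cyp1a1 was called higher in liver than in kidney at 0.69 (adjusted p = 0.0272) with TMM scaling but had a log2 difference of -0.09 with library size alone, and Cyp2b9 was not called.

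Other members were close to absent outside the liver. Cyp2c37, Cyp2c54, Cyp2c70 and Cyp3a25 had 0 counted pairs in the 12 kidney libraries together, where liver held 82053, 96565, 196008 and 218415 pairs. Cyp3a11 had 1280571 pairs in liver, 10 in kidney and 56 in heart. Cyp2c70 forms the muricholic bile acids of the mouse, and Cyp3a25 is a relative of Cyp3a11.

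In liver the comparison of 12 with 8 weeks asked which of these enzymes changed over the whole interval. Cyp2c50 and Cyp2c54 were called higher and no member was called lower, so 2 of 34 tested members were called, against 0.239% of all 14672 genes tested. The members' median log2 fold change was 0.26 against -0.0039 over all genes, and 25 members had estimates above 0 and 9 below, against 49.3% of all genes with estimates above 0. Cyp2a4, among the 9 below, had enough counts only through its 8-week libraries, so its direction was set by the count filter. In 11 of the 34 members the libraries of both ages did not overlap, 9 of them higher and 2 lower at 12 weeks, against 8.14% of all genes without overlap. The members' median lay between 0.22 and 0.30 when each of the 12 liver libraries was left out in turn.

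Cyp2c50, which like its neighbours oxidizes arachidonic acid, stood at 588, 481, 559 and 344 CPM at 8 weeks and at 972, 820, 902 and 919 CPM at 12 weeks. All 12-week libraries lay above all 8-week libraries, and the 10-week libraries, at 656 to 813 CPM, lay between both. This was a 1.83-fold rise, 0.87 on the log2 scale (SE 0.146, edgeR adjusted p = 0.0312). Cyp2c54 was measured at 250, 218, 226 and 176 CPM at 8 weeks and at 403, 296, 411 and 377 CPM at 12 weeks. The estimate was 0.77 on the log2 scale (SE 0.128, adjusted p = 0.0312 with edgeR), again without overlap. Both calls were near the threshold: over the 12 fits that each left out a liver library, each call was lost in 7, with adjusted p-values between 0.0210 and 0.121. It was also lost when only the libraries of these ages entered the fit (adjusted p = 0.0729 for Cyp2c50 and 0.0699 for Cyp2c54), and with library size as the only scaling.

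Cyp2c37, the third of these neighbours, had 243.5, 166, 199.7 and 109.6 CPM at 8 weeks and 357, 276, 382 and 392 CPM at 12 weeks. Its groups did not overlap either, and its estimate was the highest of the members at 0.97 (SE 0.196), but it missed the threshold (edgeR adjusted p = 0.0649). Exact copies in another gene's transcript were found for 0.298% of the 150-base stretches of Cyp2c37, 3.08% of those of Cyp2c50 and 1.68% of those of Cyp2c54. Whether pairs were exchanged among these genes was not tested. In the 8-week group, replicate 4 was the lowest library for all 3 genes. The same library had the highest summed level of the 6 hepatocyte markers in that group, at 126200 CPM against 92900 to 98680, and the lowest of 4 Kupffer cell markers, at 73.4 CPM against 156.9 to 161.8. Whether this bears on the 3 genes was not tested; without that library the estimate of Cyp2c54 was 0.69 (adjusted p = 0.0580), and Cyp2c50 stayed under the threshold.

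**Figure D2:**
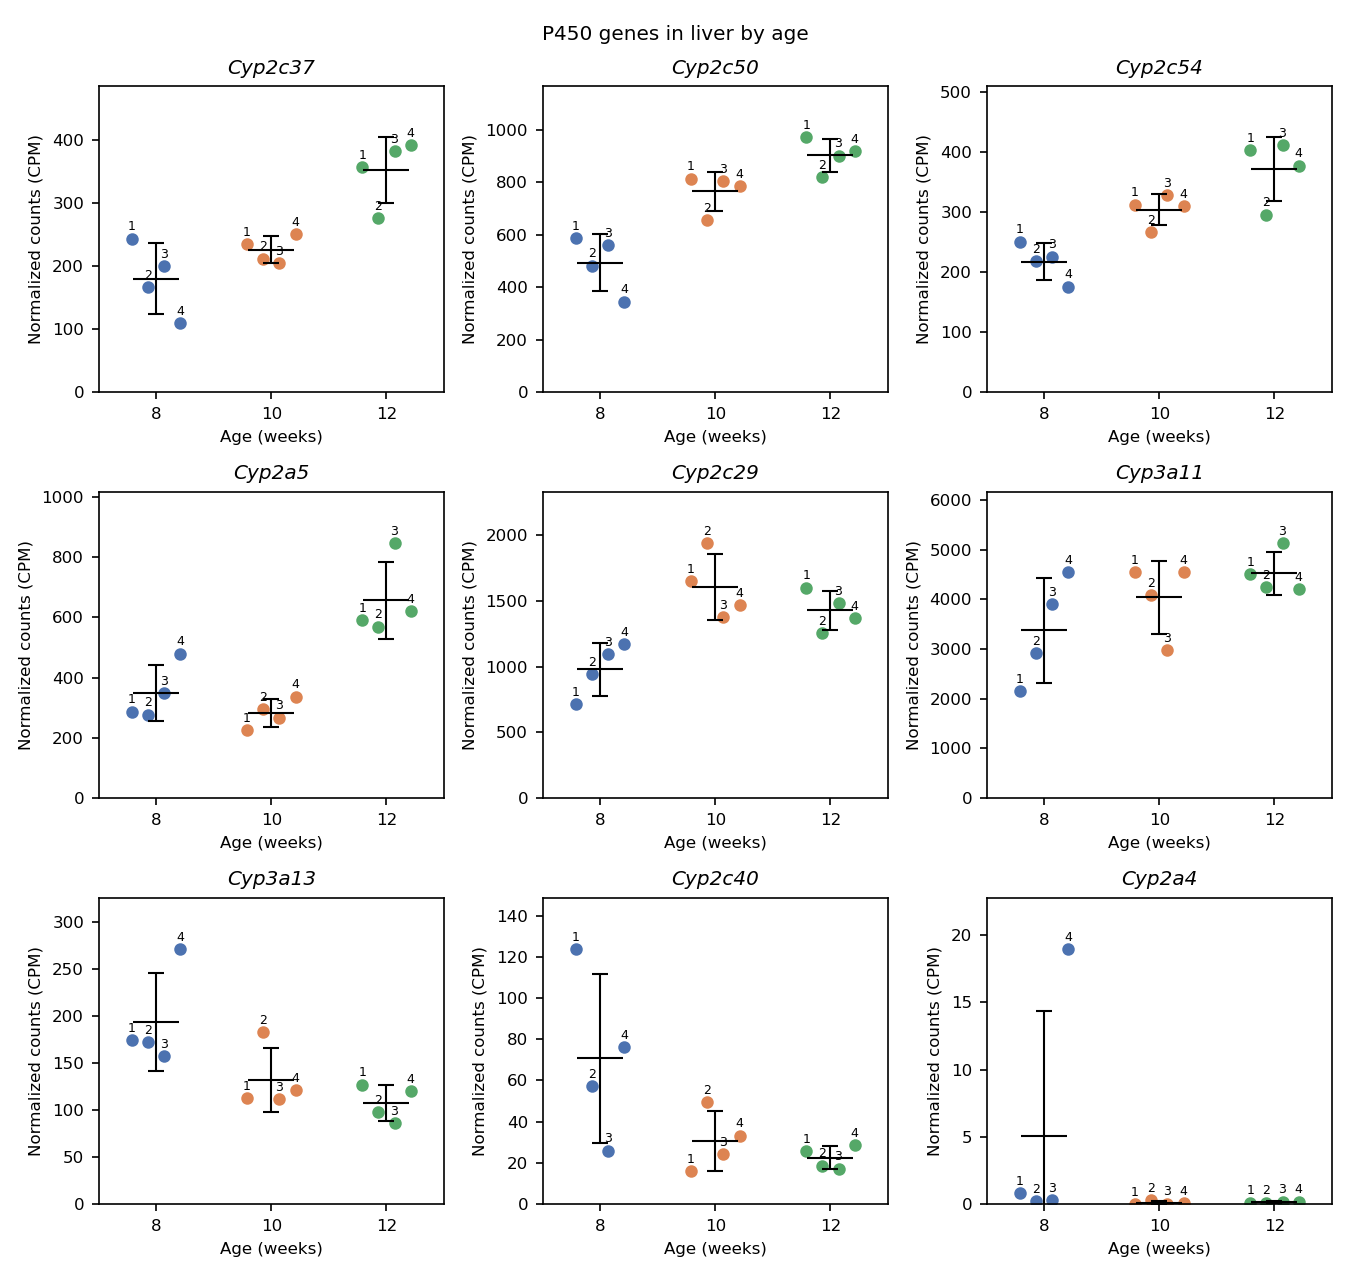
Normalized counts (CPM, scaled within liver) of 9 genes in each liver library by age in weeks; points are libraries with their replicate number, lines the mean and bars 1 SD (n = 4). Cyp2c50 and Cyp2c54 were at 344 to 588 and 176 to 250 CPM at 8 weeks and at 820 to 972 and 296 to 411 CPM at 12 weeks, and a single 8-week library carried most of the Cyp2a4 counts.

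Cyp2a5, the coumarin 7-hydroxylase of the mouse, followed another course. It stood at 287, 277, 349 and 479.5 CPM at 8 weeks, at 226, 296, 267 and 337 CPM at 10 weeks and at 592, 569, 847 and 621 CPM at 12 weeks. The 12-week libraries lay above all others, and the earlier ages overlapped. From 10 to 12 weeks it rose 2.33-fold (log2 1.22, SE 0.190, edgeR adjusted p = 0.0458) and was the only member called in that comparison, in which 0.0545% of all genes were called. From 8 to 12 weeks the estimate was 0.92 (SE 0.188, adjusted p = 0.0649). The call was lost in 10 of the 12 fits that left out a liver library, where the estimate stayed between 1.08 and 1.32. About 56.0% of the pairs that either strand count gives Cyp2a5 in liver were kept in the count without regard to strand, and pairs lying on several genes are left out of that count.

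Cyp2a4 had 0.799, 0.204, 0.288 and 18.96 CPM at 8 weeks and at most 0.272 CPM in any later liver library. Its log2 estimate of -5.06 (SE 1.39, edgeR adjusted p = 0.138) at 12 against 8 weeks rested on replicate 4, and without that library it was -1.52 (adjusted p = 0.340). Of the 150-base stretches of the Cyp2a4 transcript 6.48% also occur in other genes, Cyp2a5 among them, and Cyp2a5 was likewise highest in that 8-week library.

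Cyp2a4 belongs to the P450 genes that are known to be more abundant in female than in male mouse liver, and 3 of the 8 such genes on the list had enough counts to be tested. All 3 had lower estimates at 12 than at 8 weeks and none was called, whereas 49.3% of all genes had estimates above 0. Cyp2a4 had enough counts only through its 8-week libraries, so its direction was set by the count filter and adds nothing to this count. Cyp2c40 was at 124, 57.2, 26.0 and 76.1 CPM at 8 weeks and at 25.7, 18.7, 17.3 and 28.5 CPM at 12 weeks. The ages overlapped, and the estimate was -1.65 on the log2 scale (SE 0.416, with edgeR an adjusted p of 0.1104). Cyp2c69 was at 29.9, 12.8, 6.58 and 30.3 CPM at 8 weeks and at 7.72, 7.97, 4.17 and 8.12 CPM at 12 weeks, with a log2 fold change of -1.51 (adjusted p = 0.253). Replicates 1 and 4 were the highest of the 8-week libraries for both genes. Of the 150-base stretches of Cyp2c69 22.5% occur in Cyp2c40 or Cyp2c67, and 16.8% of those of Cyp2c40 in its relatives, so pairs of these genes may be assigned to none of them. The other 5 genes of the group, Cyp2b9, Cyp2b13, Cyp3a16, Cyp3a41a and Cyp3a44, reached at most 0.442 CPM in any liver library, and Cyp2b13 had no counted pair. For Cyp3a41a this low value is not informative, since 82.9% of its 150-base stretches occur in Cyp3a41b.

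Among the 7 genes that respond to CAR or PXR, 2 were called higher at 12 than at 8 weeks and 6 had estimates above 0, with a median of 0.54. Over all liver genes tested, 0.239% were called, 49.3% had estimates above 0 and the median was -0.0039. The called genes were Cyp2c50 and Cyp2c54 themselves. Cyp3a11 was at 2150, 2909, 3906 and 4543 CPM at 8 weeks and at 4500, 4244, 5131 and 4204 CPM at 12 weeks, with overlap and a log2 fold change of 0.42 (SE 0.205, edgeR adjusted p = 0.355). Cyp2c29, an epoxygenase, was at 715, 943, 1098 and 1172 CPM at 8 weeks and at 1603, 1258, 1482 and 1372 CPM at 12 weeks. Its libraries did not overlap, at a log2 fold change of 0.54 (SE 0.155, adjusted p = 0.149). Cyp2b10, the standard indicator gene of CAR, varied more than any other member but Cyp2a4 within ages, with 0.759, 5.17, 7.01 and 11.6 CPM at 8 weeks and 3.96, 0.960, 2.82 and 11.7 CPM at 12 weeks. In the 8-week livers the libraries stood in the same order, from replicate 1 as the lowest to replicate 4 as the highest, for Cyp2b10, Cyp2c29, Cyp2c55 and Cyp3a11. The other 3 genes of the group, Cyp2c37, Cyp2c50 and Cyp2c54, were highest in replicate 1 and lowest in replicate 4. The 2 AHR targets, Cyp1a1 and Cyp1b1, reached at most 2.41 CPM in any liver library and neither was called.

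The other members were described by their estimates at 12 against 8 weeks. Cyp2a12, Cyp2d10, Cyp2f2 and Cyp2j5 did not overlap between the ages, at log2 estimates of 0.20 to 0.35 and adjusted p-values of 0.225 to 0.302. Cyp2d10, a steroid and drug hydroxylase of the liver, was at 595, 634, 682 and 549 CPM at 8 weeks and at 767, 729, 762 and 690 CPM at 12 weeks. Cyp2d26, the highest member of its subfamily per length, overlapped, with 777, 717, 697 and 619 CPM at 8 weeks and 967, 770, 765 and 701 CPM at 12 weeks. For the remaining members with counts outside the lists, Cyp2a22, Cyp2c38, Cyp2c39, Cyp2c67, Cyp2c68, Cyp2c70, Cyp2d22, Cyp2d40, Cyp2g1, Cyp2j6, Cyp2j9, Cyp2s1, Cyp2u1, Cyp3a25 and Cyp3a59, the estimates lay between -0.18 for Cyp2c68 and 0.79 for Cyp2g1, an olfactory P450 that is low in liver. None of these 15 was called, and in each of them the libraries of the ages overlapped. Cyp3a13 had no overlap in the other direction and is described with the comparison of tissues.

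From 8 to 10 weeks no liver member was called by edgeR's quasi-likelihood test, with 0.0204% of all genes called. An unadjusted p under 0.05 was found for 11 of the 34 members and for 2100 of all 14672 genes. The libraries of 4 members did not overlap, all higher at 10 weeks, against 9.55% of all genes. These were Cyp2c29, Cyp2c50, Cyp2c54 and Cyp3a59, a close relative of Cyp3a25, and the highest estimate was that of Cyp3a59 at 1.17 (SE 0.267, adjusted p = 0.122). Its values were 15.0, 21.7, 17.6 and 28.3 CPM at 8 weeks and 65.5, 45.3, 29.9 and 45.1 CPM at 10 weeks. DESeq2 called 5 members in this comparison, for which the share of all genes called by DESeq2 was not counted. From 10 to 12 weeks, 5 members did not overlap, again all higher at the older age, against 8.23% of all genes; they were Cyp2a5, Cyp2c37, Cyp2c50, Cyp2d22 and Cyp2g1. Kupffer cell markers summed to 188 to 296 CPM at 10 weeks, above the 73.4 to 162 CPM at 8 weeks and the 106 to 118 CPM at 12 weeks, and their part in these comparisons was not tested. All comparisons with 10 or 8 weeks share libraries.

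**Figure D3:**
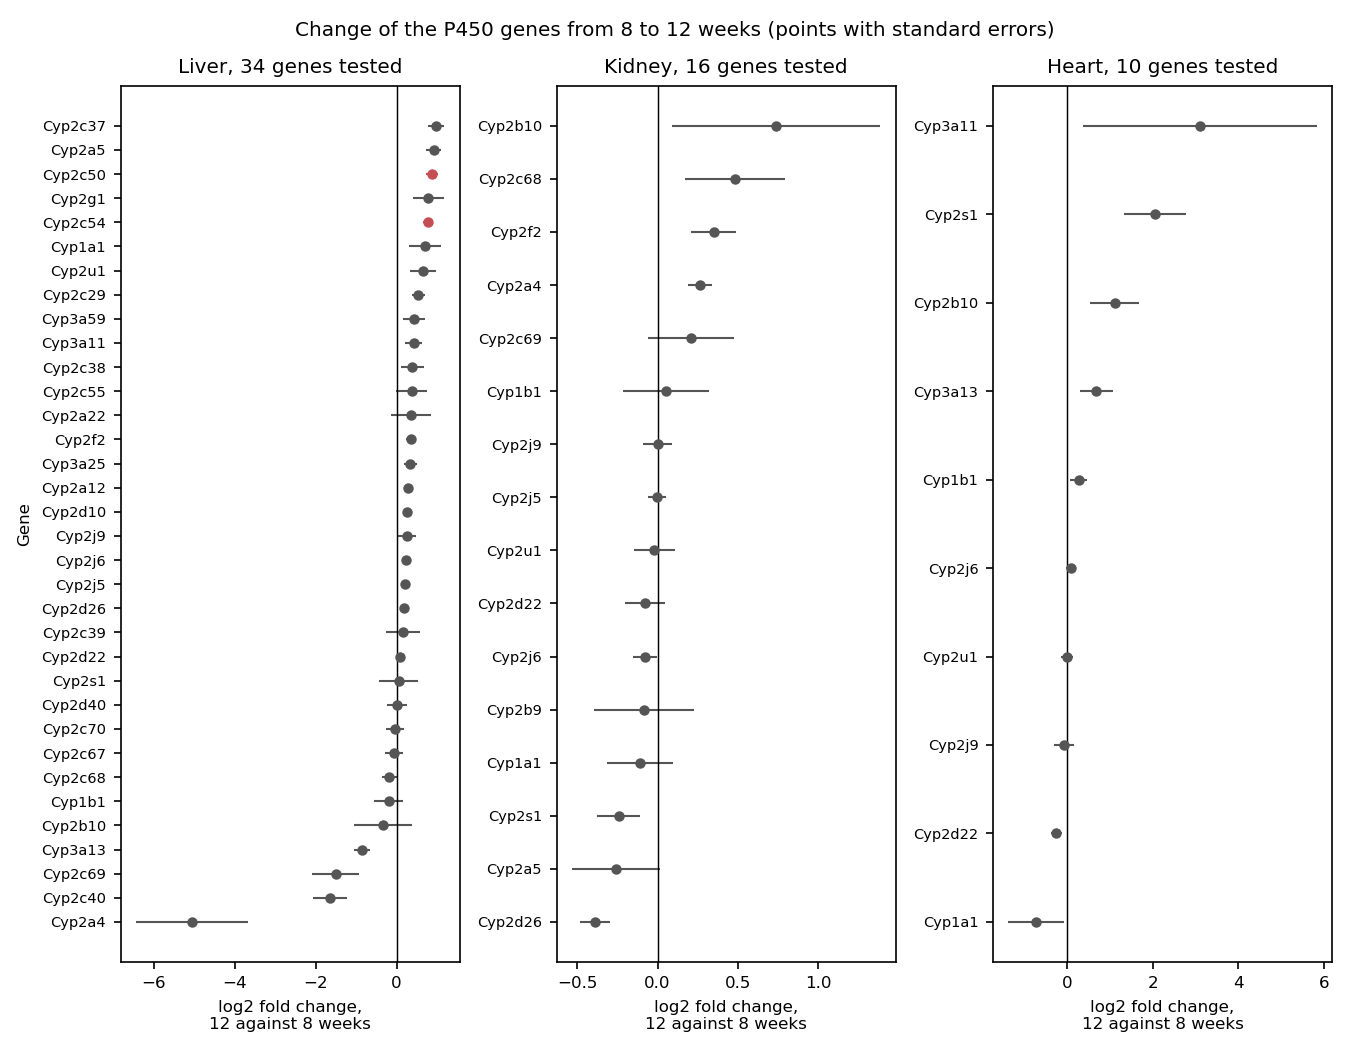
Log2 fold change at 12 against 8 weeks with its standard error for every member tested in liver (34), kidney (16) and heart (10); red points passed an adjusted p under 0.05. Only Cyp2c50 and Cyp2c54 in liver are red, and the panels have different scales on the horizontal axis.

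In kidney none of the 16 members tested was called in any comparison by edgeR's quasi-likelihood test. In each comparison 3 members had an unadjusted p under 0.05. Of all 17649 genes, 2059 had such a p at 12 against 8 weeks, 2917 at 10 against 8 weeks and 2894 at 12 against 10 weeks. Without replicate 2 of the 10-week group, Cyp2s1 was called lower at 10 than at 8 weeks (log2 fold change between -0.56 and -0.33 over all left-out libraries, lowest adjusted p = 0.0351). From 8 to 12 weeks 0.0567% of all 17649 genes were called, and the members' median log2 fold change was -0.0099 against 0.0025 over all genes. From 8 to 10 weeks 0.929% of all genes were called and from 10 to 12 weeks 0.482%. Cyp2j5, the main P450 of the list in kidney, had the lowest spread within ages of any member there and lay at 1577 to 1715 CPM at 8 weeks, 1548 to 1754 CPM at 10 weeks and 1606 to 1685 CPM at 12 weeks. Its log2 fold change at 12 against 8 weeks was -0.00077 (SE 0.0558). Cyp2a4 stood at 323, 276, 277 and 287 CPM at 8 weeks and at 321, 359, 349 and 367 CPM at 12 weeks, with overlap and a log2 fold change of 0.26 (SE 0.0773, adjusted p = 0.251).

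Cyp2a5 gave the largest estimate in kidney. It was at 184, 224, 283 and 240 CPM at 8 weeks, at 52.3, 150.0, 109.6 and 157 CPM at 10 weeks and at 159, 142, 237 and 242 CPM at 12 weeks. All 10-week libraries lay under all 8-week libraries, which was the case for this member alone, against 9.09% of all genes without overlap in either direction. The log2 fold change of -0.99 (SE 0.275) missed the threshold (edgeR adjusted p = 0.0958), with adjusted p-values between 0.0611 and 0.229 when single kidney libraries were left out.

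At 12 against 8 weeks, 2 kidney members did not overlap, against 6.61% of all genes. Cyp2d26 was lower, with 151.7, 180.1, 150.6 and 197 CPM at 8 weeks and 127, 119, 131 and 141 CPM at 12 weeks (log2 -0.39, SE 0.0933, edgeR adjusted p = 0.181). Cyp2f2, known for the activation of naphthalene in airway cells, was higher, with 2.71, 2.42, 2.67 and 2.46 CPM at 8 weeks and 3.33, 3.24, 3.45 and 3.03 CPM at 12 weeks (log2 0.35, SE 0.141, adjusted p = 0.360). Cyp2f2 was also the only member without overlap from 10 to 12 weeks, against 8.93% of all genes, and its log2 fold change there was 0.46 (adjusted p = 0.126). The unstranded count kept only 20.6% of the kidney pairs that the strand columns give this gene, and it was called in that comparison with the first strand column (log2 0.59, adjusted p = 0.0264) and with the sum of both (log2 0.54, adjusted p = 0.0487).

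Cyp2b10 had the highest kidney estimate at 12 against 8 weeks and also the widest spread, with 0.643, 2.09, 5.93 and 1.75 CPM at 8 weeks and 2.42, 4.33, 4.11 and 7.03 CPM at 12 weeks (log2 0.74, SE 0.648, edgeR adjusted p = 0.704). Cyp2s1 stood at 16.7, 16.6, 15.0 and 17.9 CPM at 8 weeks and at 12.4, 13.2, 16.8 and 13.8 CPM at 12 weeks, with overlap. Cyp2c68, a low gene in kidney at 0.323 to 0.963 CPM, had a log2 estimate of 0.48 (adjusted p = 0.583). Cyp2j6 lay at 41.4 to 53.9 CPM in all kidney libraries. Adipocyte markers, whose sum ranged from 0.159 to 37.4 CPM, varied strongly between kidney libraries, and their part in these values was not tested.

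**Figure D4:**
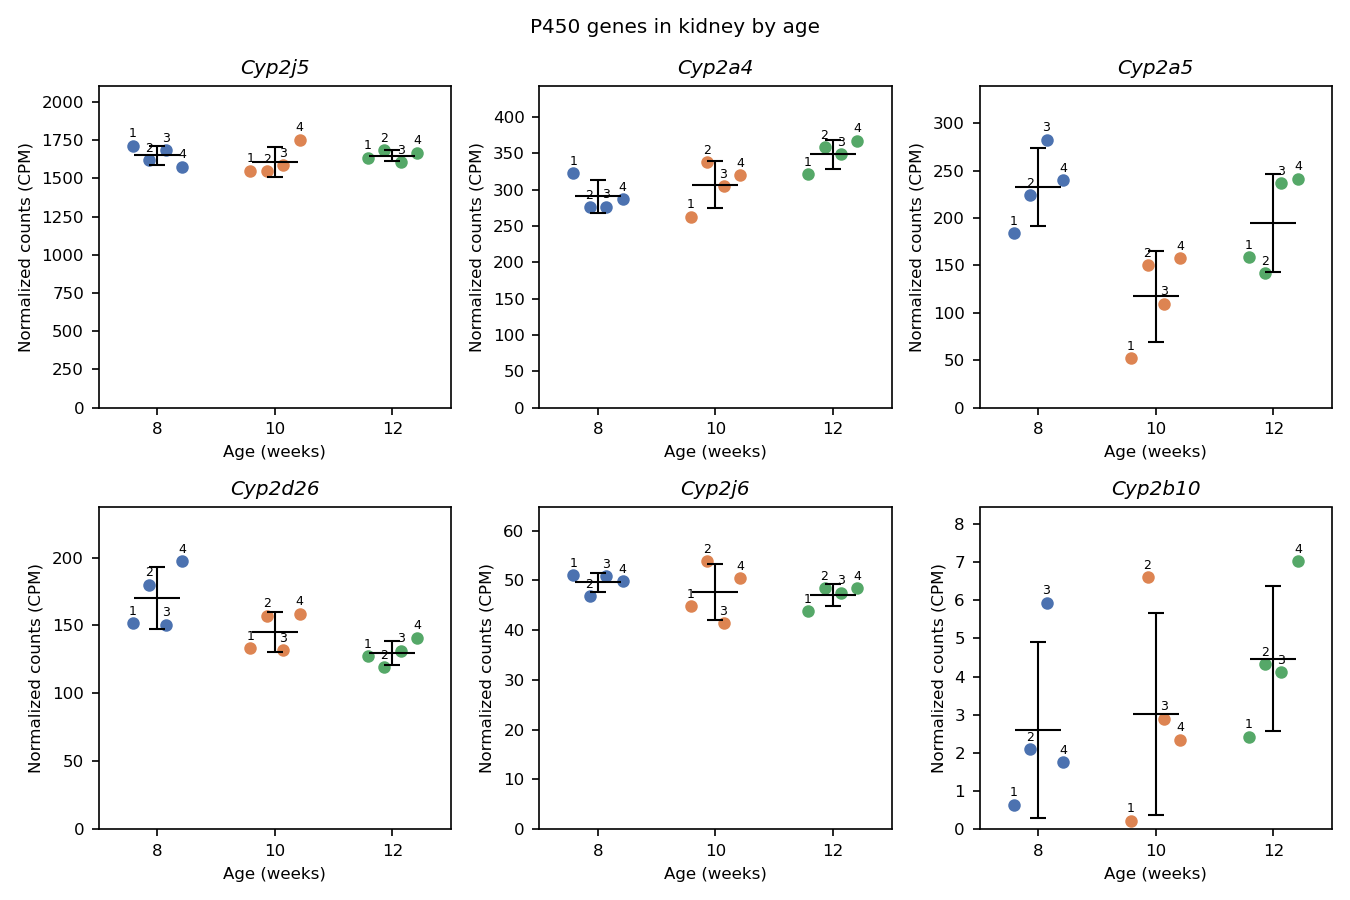
Normalized counts (CPM, scaled within kidney) of 6 genes in each kidney library by age in weeks; points are libraries with their replicate number, lines the mean and bars 1 SD (n = 4). Cyp2j5 lay between 1548 and 1754 CPM throughout, and Cyp2a5 was at 52.3 to 157 CPM at 10 weeks against 184 to 283 CPM at 8 weeks.

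In heart, Cyp2s1 was the only member called. It was at 0.322, 0.0345, 0.273 and 0.351 CPM at 8 weeks, at 2.51, 0.328, 1.59 and 4.96 CPM at 10 weeks and at 0.278, 1.33, 1.16 and 1.15 CPM at 12 weeks. Replicate 2 of the 10-week group and replicate 1 of the 12-week group lay among the 8-week values, so the ages overlapped. At 10 against 8 weeks the log2 fold change was 3.28 (SE 0.669, adjusted p = 0.0273 with edgeR), 1 of 10 members against 1.06% of all 15137 genes. The call was lost with limma-voom (adjusted p = 0.140) and without replicates 2, 3 or 4 of the 8-week group or replicates 1 or 4 of the 10-week group, at estimates of 2.62 to 3.63 over all left-out libraries. Without the 10-week libraries 2 and 4 together, which held the most hepatocyte marker counts, the estimate was 3.07 (adjusted p = 0.0105). In that fit 1.52% of all genes were called. These libraries also held the lowest and highest 10-week values of Cyp2s1. In heart, 4 cholangiocyte markers (Krt19, Krt7, Epcam, Sox9) summed to 0.773 to 1.57 CPM at 8 weeks. Their sum was 2.25 to 4.55 CPM at 10 weeks and 0.788 to 2.10 CPM at 12 weeks. At 10 weeks, but not at 8 or 12 weeks, they ranked the libraries as Cyp2s1 did. Their part in the Cyp2s1 values was not tested.

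At 12 against 8 weeks 4.56% of all heart genes were called, and no member was, by edgeR's quasi-likelihood test. Cyp2s1 was the only member under an unadjusted p of 0.05 (log2 2.05, SE 0.714, edgeR adjusted p = 0.0992), a level reached by 3544 of all 15137 genes. Without the 10-week libraries 2 and 4 it passed (adjusted p = 0.0357), as it did in a fit of these ages only (adjusted p = 0.0479). No member was without overlap in this comparison, against 12.7% of all genes. From 10 to 12 weeks no member was called, with 0.0396% of all genes called, and again none was without overlap, against 6.08% of all genes. An unadjusted p under 0.05 was found there for 2 of the 10 members and for 1776 of all 15137 genes. Cyp3a11 was among these 2, and its direction there was set by the count filter.

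Cyp3a11 showed the largest estimate in heart, on few counts. It had no counted pair in the 8-week hearts and 0.0386, 0.750, 0 and 1.44 CPM at 10 weeks. The libraries with 0.750 and 1.44 CPM were replicates 2 and 4, which also held 18.3 and 23.9 CPM of hepatocyte markers, with all 6 markers present. At 12 weeks the values were 0, 0.0699, 0 and 0.0744 CPM. The edgeR test gave an adjusted p of 0.0940 at 10 against 8 weeks, and with the replicate number as a block Cyp3a11 was called (adjusted p = 0.00989). Each mouse was killed at a single age, so this block joins different mice of equal number and has no basis in the design. Cyp3a11 passed the count filter only through its 10-week libraries, so the direction of its estimates against 10 weeks was set by that filter. Without replicates 2 and 4 of that group it did not pass. Cyp2c29 at 0.234 and 0.985 CPM and Cyp3a25 at 0.187 and 0.451 CPM, which did not pass the count filter in heart, were highest in the same libraries.

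The members with the highest levels in heart kept their values across ages within the spread between libraries. Cyp2d22 was at 17.2 to 24.8 CPM at 8 weeks and 13.5 to 20.2 CPM at 12 weeks (log2 -0.26, SE 0.127, edgeR adjusted p = 0.233). Cyp2u1 was at 8.77 to 14.4 CPM at 8 weeks and 9.87 to 12.6 CPM at 12 weeks, and Cyp2j6 at 7.48 to 8.42 and 7.18 to 9.45 CPM. Cyp1a1 had the lowest estimate at 12 against 8 weeks, with 0.201, 0.414, 1.36 and 2.92 CPM at 8 weeks and 0.417, 0.385, 1.26 and 0.818 CPM at 12 weeks (log2 -0.73, adjusted p = 0.529). Its spread at 8 weeks covered all values of the later ages. Cyp3a13 was the only heart member without overlap at 10 against 8 weeks, against 9.78% of all genes, with 0.402, 0.172, 0.864 and 0.585 CPM at 8 weeks and 0.926, 0.984, 0.970 and 1.11 CPM at 10 weeks (log2 1.01, adjusted p = 0.204). Without the 10-week replicates 2 and 4 its estimate was 0.93 (adjusted p = 0.404), and those of Cyp2d22, Cyp2u1, Cyp2j6 and Cyp1a1 at 12 against 8 weeks were -0.27, -0.02, 0.07 and -0.73, with none called.

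**Figure D5:**
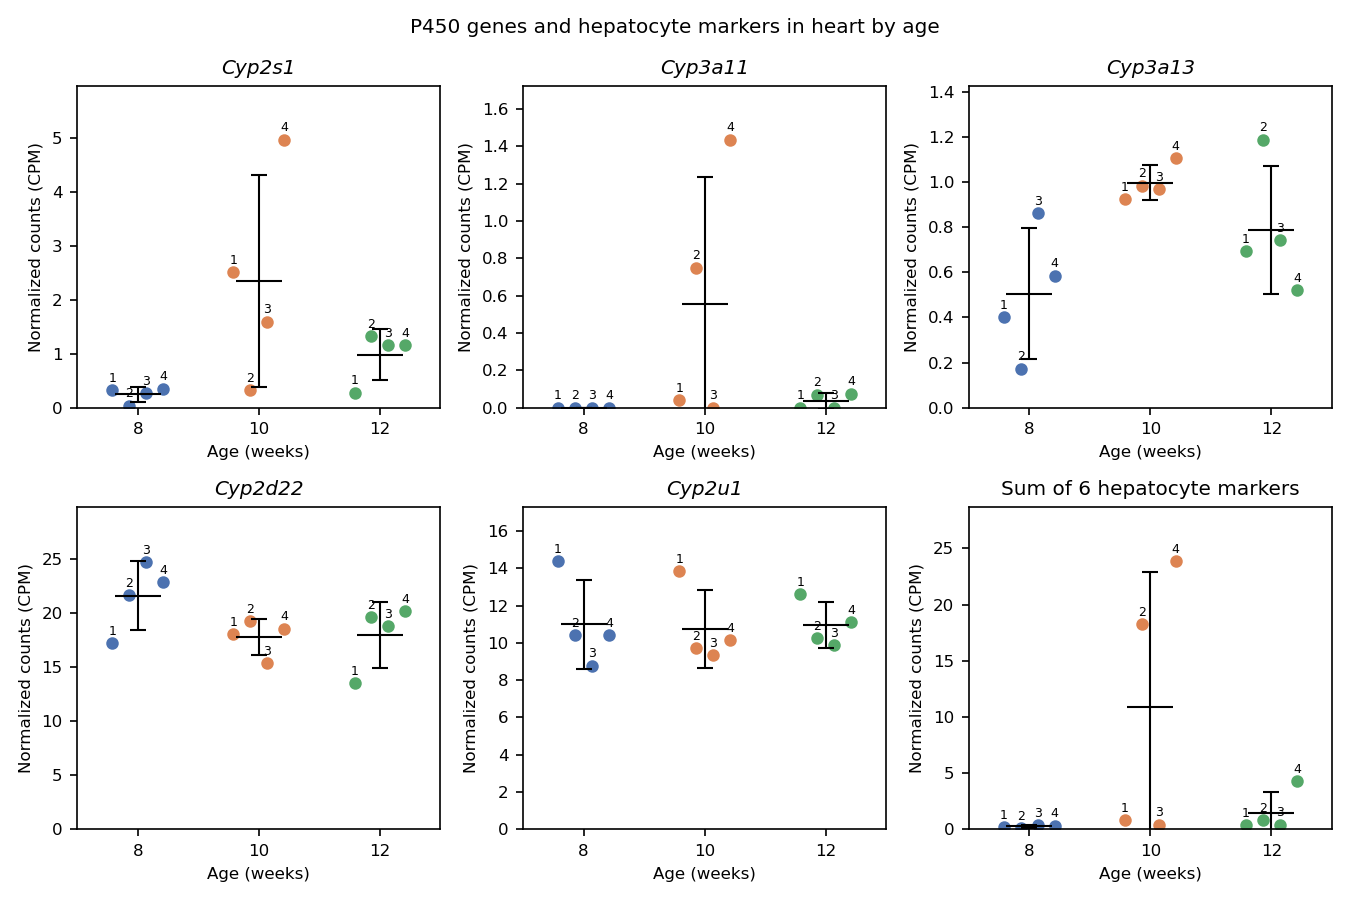
Normalized counts (CPM, scaled within heart) of 5 genes and the summed CPM of 6 hepatocyte markers in each heart library by age in weeks; points are libraries with their replicate number, lines the mean and bars 1 SD (n = 4). Replicates 2 and 4 at 10 weeks held 0.750 and 1.44 CPM of Cyp3a11 and 18.3 and 23.9 CPM of the hepatocyte markers.

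Whether the change from 8 to 12 weeks differed between tissues was tested with the interaction term of the model of all libraries. Cyp3a13 alone differed, between liver and heart, 1 of 35 members against 4.16% of all genes. A single call among 35 members is not above that share. Cyp3a13 was not called at 12 against 8 weeks within liver or within heart. In liver it was at 174, 172, 157 and 271 CPM at 8 weeks and at 127, 97.4, 86.3 and 120 CPM at 12 weeks without overlap, whereas in heart it was at 0.172 to 0.864 and 0.521 to 1.19 CPM. The difference of both changes was -1.55 (log2, liver minus heart, SE 0.432, edgeR adjusted p = 0.0354). Heart held 232 counted pairs of this gene in 12 libraries, and the call was lost in 6 of the 36 fits that each left out a library and with limma-voom (adjusted p = 0.220). Without the 10-week heart libraries 2 and 4 the difference was -1.55 (adjusted p = 0.0435). Between liver and kidney no member was called, with 0.304% of all genes called, and the lowest adjusted p was that of Cyp2a4 at 0.0554. An unadjusted p under 0.05 was found for 6 of the 35 members and for 2201 of all 19716 genes. Between kidney and heart no member was called, with 0.112% of all genes called, and 3 members and 2198 of all 19716 genes had an unadjusted p under 0.05.

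The genes that work with these enzymes were read from a list of 23, which holds electron donors, a membrane partner, receptors and regulators, and the enzymes of heme synthesis. In liver and kidney none of the 22 with enough counts was called in any comparison. Nr1i3, which encodes CAR, had a log2 fold change of 0.14 (SE 0.160) at 12 against 8 weeks in liver, and Nr1i2, which encodes PXR, one of 0.06 (SE 0.102). In heart, Por, the reductase that passes electrons to every microsomal P450, was lower at 12 weeks with 40.5 ± 4.00 CPM against 50.5 ± 2.01 CPM (SD, n = 4; log2 -0.32, SE 0.0847, edgeR adjusted p = 0.0417). Ppox, the penultimate enzyme of heme synthesis, was also lower in heart at 12 weeks with 8.45 ± 0.556 CPM against 11.2 ± 0.953 CPM (log2 -0.40, SE 0.109, adjusted p = 0.0452). Without the 10-week replicates 2 and 4 both calls held (adjusted p = 0.0383 for Por and 0.0395 for Ppox). They stand in the comparison in which 4.56% of all heart genes were called.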

How the data were processed

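The authors trimmed the read pairs with cutadapt 4.2 after FastQC 0.11.9 and aligned them to the mouse genome GRCm39 with STAR 2.7.11b, which counted pairs per gene. The deposited values were whole-number counts, taken from the unstranded column. Gene names and positions came from GENCODE M39. A pair that fits several genes is not counted, which lowers genes with near-identical relatives. Of all pairs, 68.6% to 78.8% were counted, 21031599 to 33637390 per library.

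Tissue and age in the labels set the groups. No column belonged to another series (0 found). Genes entered the test of a tissue with a mean count of at least 10 and counts in at least 2 libraries of an age. Counts were scaled by TMM and tested with the quasi-likelihood test of edgeR 4.0.16 in R 4.3.3, with all ages of a tissue in 1 fit, and p-values were adjusted over all genes tested by the Benjamini-Hochberg method with a threshold of 0.05. CPM and RPKM were computed from the counts. Tissues and interactions were tested in 1 fit of all libraries, over the genes that passed this count filter in any of the tissues. Alternatives were limma-voom (limma 3.58.1), DESeq2 1.42.0, other filters, factors and strand columns, fits of only the ages compared, a replicate block and leaving out each library. The both-strand sum, scaling by library size alone and the heart fit without replicates 2 and 4 at 10 weeks were chosen after seeing the data. In simulated liver counts for 12 against 8 weeks (14412 genes), 50.8% of genes changed by 1 on the log2 scale and 7.69% of those changed by 0.5 were called. Named genes were those called in any age comparison, the highest members per tissue, the members with the highest and lowest estimates at 12 against 8 weeks and those with the widest spread within ages, and others are named for a list or a lack of overlap after their values were seen. The members and lists were chosen with earlier results of these data known. The replicates are described as biological, and no label says that equal numbers in different tissues are the same animal, so p-values between tissues treat the libraries as separate animals. Each p-value sets a difference against the spread between these samples.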

Additional observations from a re-analysis of the deposited data

Results flagged for a closer look

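Of 80 groups of 4 libraries examined for the named genes, 4 had a library far from the other three, about the 1 in 20 that chance gives. Cyp2a4 in liver was at 18.96 CPM in replicate 4 at 8 weeks, against at most 0.799 CPM in the others. Cyp2c69 in liver was at 23.86 CPM in replicate 2 at 10 weeks, against at most 6.50 CPM, and at 4.17 CPM in replicate 3 at 12 weeks, against at least 7.72 CPM. Cyp2s1 in heart was at 0.278 CPM in replicate 1 at 12 weeks, against at least 1.15 CPM.

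The test of the difference itself between liver and heart called 4.16% of all genes. Cyp3a13 was singled out because its change from 8 to 12 weeks differed there by -1.55 on the log2 scale, liver minus heart (edgeR adjusted p = 0.0354). The unstranded count kept 43.6% of its pairs in liver and 26.0% in heart, and with the sum of both strand columns the difference was -1.48 (adjusted p = 0.00242).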

How the results depend on the processing

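The liver-kidney difference of Cyp1a1, 0.69 with TMM, turned to -0.0912 (adjusted p = 0.774) with library size as the only scaling, and no other named value that was called changed its sign. In liver, DESeq2 called 7, 5 and 4 members at 12 against 8, 10 against 8 and 12 against 10 weeks, and the filter of 1 count called 9, 8 and 3; a fit of only the compared ages and scaling by library size alone each called 0 at 12 against 8 weeks. In kidney, DESeq2 called 1 and the filter of 1 count 2 at 12 against 8 weeks, the same filter called 2 at 10 against 8 and 1 at 12 against 10 weeks, and the first strand column and both strand columns called 1 each at 12 against 10 weeks. In heart, limma-voom called 0 and the filter of 1 count 6 at 10 against 8 weeks; that filter called 1 at 12 against 8 and 4 at 12 against 10 weeks, and a fit of only the compared ages and one without the 10-week replicates 2 and 4 called 1 each at 12 against 8 weeks. For changes that differ between tissues, limma-voom called 0 between liver and heart, the filter of 1 count called 3 there, 4 between liver and kidney and 1 between kidney and heart, and the sum of both strand columns called 1 between liver and kidney. The share of all genes called was not counted for these alternatives. The exception was the heart fit without the 10-week replicates 2 and 4, in which 3.77% of all genes were called at 12 against 8 weeks. The counts of members above cannot be set against the shares of the main fit. The cause of these shifts was not tested.

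Leaving out single libraries gave 0 to 3 calls in liver at 12 against 8 weeks and 0 to 1 in its other comparisons, 0 to 1 in kidney at 10 against 8 weeks, 0 to 1 in heart at 10 or 12 against 8 weeks, and 0 to 1 for changes differing between liver and heart or kidney. The library numbers of the samples are the same in heart, kidney and liver at each age. No label says that these or the replicate numbers mark an animal, so no pairing entered the main fits. Deviations of same-numbered libraries of different ages had correlations of -0.261 to 0.166. Across tissues they had a median of 0.0545, with 4 of 36 over 0.1, against -0.0193 and 0 of 108 for unequal numbers, and all 12 liver libraries correlated best with the kidney library of their own number, a hint from the data and not the design. With the replicate block Cyp2s1 and Cyp3a11, 2 heart members, were called at 10 against 8 weeks, although within a tissue this block joins different mice. The direction of Cyp3a11 was set by the count filter. With a block in the fit of all libraries 1 member differed between liver and kidney, and the other counts of calls stayed within 1.5 times. In simulated liver counts 50.8% of the genes changed by 1 on the log2 scale were called, so a liver gene that was not called may still differ.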

Other observations

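The 23 protein-coding P450 genes of families 1 to 3 outside the list gave 7 tested genes in liver, 10 in kidney and 2 in heart. In liver all 7 had estimates above 0 at 12 against 8 weeks, with a median of 0.31, and edgeR's quasi-likelihood test called none. Cyp2d12 rose in kidney from a mean of 76.0 CPM at 8 weeks to 174 CPM at 12 weeks (log2 1.20, SE 0.146, edgeR adjusted p = 0.00611). Cyp2e1, the ethanol-oxidizing P450 of the liver, rose in heart from 0.124 CPM at 8 weeks to 1.33 CPM at 10 weeks (log2 3.43, SE 0.501, adjusted p = 0.00310), in the comparison whose 10-week replicates 2 and 4 held 18.3 and 23.9 CPM of hepatocyte markers. Without these 2 libraries the Cyp2e1 estimate was 3.10 (SE 0.528, adjusted p = 0.00944), in a fit that called 1.52% of all genes.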
